A study of Mus musculus with 3 samples.

Results

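The genes described here are the variable (V) segments of the T-cell receptor alpha and beta chains, taken as every gene whose symbol starts with Trav or Trbv. These were 163 of the 32285 genes counted, 128 Trav genes at chr14:52427928-53977678 and 35 Trbv genes at chr6:40891229-41558452 (GRCm38, GENCODE M21). GENCODE calls 108 of the Trav genes and 22 of the Trbv genes functional and the others pseudogenes.

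The measurements are 3 single-cell RNA-seq libraries of live CD45+ cells sorted from pancreatic islets. All mice were female wild-type NOD mice, a strain that develops autoimmune diabetes, aged 15 to 16 weeks. Each library holds the pooled islets of 2 to 3 mice, so a value of a library is an average over mice and the receptors of 1 mouse can weigh on it. There was 1 condition, and the comparisons were made between classes of cells within the libraries.

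Cells with at least 1000 UMIs (unique molecular identifiers, counted molecules), under 10% mitochondrial UMIs and a Cd3e UMI were taken as T cells. CD8+ T cells had at least 2 UMIs of Cd8a and Cd8b1 and none of Cd4 or Foxp3. CD4+ T cells had a Cd4 UMI and none of Cd8a, Cd8b1 or Foxp3, and Foxp3+ T cells, taken as regulatory T cells, had a Foxp3 UMI. The Foxp3 rule neither required a Cd4 UMI nor excluded cells with one. Cells with a Cd8a or Cd8b1 UMI could stay in this class, except for those left out below. A cell with a UMI of Pdcd1, which encodes PD1, was called PD1+ and a cell without was called PD1-. The 3 libraries held 5844, 9537 and 11566 cells with a median of 4230, 6415 and 5521 UMIs. Together they gave 3199 CD8+ T cells (1066 PD1+), 5858 CD4+ T cells (2003 PD1+) and 1612 Foxp3+ T cells (888 PD1+). Before this, 59 cells with a Foxp3 UMI, at least 2 UMIs of Cd8a and Cd8b1 and none of Cd4 were left out. Library pairs shared 12, 18 and 29 cell barcodes.

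A T-cell receptor is made when each developing T cell joins 1 V segment to a J segment (and, in the beta chain, a D segment between them), and the daughters of that cell keep the joined gene. The V segment carries part of the surface that touches the peptide and the MHC molecule. A T cell that expands in a tissue therefore leaves its V genes over-represented among its descendants, and V genes are a coarse label of a clone, since many clones share a V gene. In NOD mice, members of the Trav16 family are known from CD8+ T cells specific for the beta cell antigen IGRP, and Trav5d-4 from T cells that recognise an insulin peptide.

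The sequences below are the ones on which the results turn. The Trav16 family has 3 genes with UMIs, and the last 240 coding bases of these segments, up to the join, are shown 5′ to 3′ (GENCODE M21 transcripts), with the positions at which the 3 differ in capitals. They lie at chr14:53351028-53351621 (Trav16n), chr14:53047287-53047821 (Trav16d-dv11) and chr14:53743104-53743705 (Trav16), all on the plus strand.

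Trav16n: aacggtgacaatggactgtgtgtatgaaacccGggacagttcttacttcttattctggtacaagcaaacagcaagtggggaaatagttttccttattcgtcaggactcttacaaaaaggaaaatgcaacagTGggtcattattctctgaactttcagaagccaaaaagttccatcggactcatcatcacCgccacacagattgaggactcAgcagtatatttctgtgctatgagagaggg
Trav16d-dv11: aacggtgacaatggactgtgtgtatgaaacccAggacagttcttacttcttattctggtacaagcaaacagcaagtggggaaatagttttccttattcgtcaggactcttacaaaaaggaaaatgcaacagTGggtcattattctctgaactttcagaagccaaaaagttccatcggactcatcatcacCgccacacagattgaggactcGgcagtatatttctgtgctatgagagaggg
Trav16: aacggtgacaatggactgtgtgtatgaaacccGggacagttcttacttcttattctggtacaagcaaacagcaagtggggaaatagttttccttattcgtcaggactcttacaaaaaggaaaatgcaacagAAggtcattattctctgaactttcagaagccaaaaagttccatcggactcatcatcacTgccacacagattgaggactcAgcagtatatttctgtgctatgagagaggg

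Counted from 1 at the first base shown, Trav16n and Trav16d-dv11 differed at 2 of the 240 bases (G33A and A211G, with the base of Trav16n first), and Trav16n and Trav16 differed at 3 (T132A, G133A and C190T). A read that falls between these positions matches more than 1 gene and is not counted. The beta segments that recur below are shown by their last 60 coding bases, with the codon of the conserved cysteine that ends the framework in capitals. They are on chromosome 6, with Trbv15 at chr6:41141188-41141658, Trbv12-2 at chr6:41118851-41119364, Trbv13-1 at chr6:41116007-41116468, Trbv13-2 at chr6:41121396-41121832 and Trbv13-3 at chr6:41130147-41130585.

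Trbv15: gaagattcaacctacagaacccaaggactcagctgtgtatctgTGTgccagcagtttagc
Trbv12-2: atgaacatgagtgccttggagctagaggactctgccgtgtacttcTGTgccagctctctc
Trbv13-1: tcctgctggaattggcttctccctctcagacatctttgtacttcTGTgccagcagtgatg
Trbv13-2: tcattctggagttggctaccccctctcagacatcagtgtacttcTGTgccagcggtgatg
Trbv13-3: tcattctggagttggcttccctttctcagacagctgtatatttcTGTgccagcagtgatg

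The libraries were made with 3′ chemistry, which reads from the poly-A end of the transcript, while the V segment lies at the other end. A V gene was seen in a minority of T cells. Of the 10669 T cells of the 3 classes, 23.3% showed a Trav UMI, 25.4% a Trbv UMI, 6.98% both and 41.8% at least 1 of them. The constant genes next to the poly-A end were seen far more often, Trac in 86.1% and Trbc1 or Trbc2 in 99.3% of the same cells. In B cells, which do not use these genes, 8 of 4224 cells (0.189%) showed a Trav UMI and 3 of 4224 (0.0710%) a Trbv UMI, at median depths of 4133 to 6619.5 UMIs in the 3 libraries, against 4830 to 7019.5 UMIs in the T cells. These B cells had at least 2 UMIs of Cd79a and Ms4a1 and were chosen to have none of Trac, Cd3d, Cd3e or Cd3g.

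Among cells with a Trav UMI, 20.9% of CD8+, 13.0% of CD4+ and 17.4% of Foxp3+ T cells showed more than 1 Trav gene, and of the CD8+ T cells with exactly 2, 51.6% showed 2 genes of the same family. More than 1 Trbv gene was seen in 10.7%, 10.5% and 13.0% of the Trbv-positive cells of these classes, and 4.76% of the CD8+ T cells with exactly 2 Trbv genes showed 2 of a family. Most positive cells rested on a single UMI, which was the case for 59.5% of the Trav-positive and 75.6% of the Trbv-positive CD8+ T cells.

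A V gene was seen in more of the PD1+ than of the PD1- CD8+ T cells of each library. A Trav gene was seen in 38.5%, 42.3% and 24.6% of PD1+ CD8+ T cells of libraries 1, 2 and 3, and in 23.9%, 28.6% and 19.6% of PD1- ones. The PD1+ cells were also deeper, with medians of 5865, 8656.5 and 7037 against 4896, 7309 and 6240 UMIs. With each cell thinned to 2000 UMIs the means were 13.4% ± 5.88 and 9.46% ± 2.04 (SD, n = 3), higher in 2 of 3 libraries (exact sign-flip permutation test, two-sided, p = 0.50). No such test over 3 libraries can go below 0.25.

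For Trbv genes the difference was seen in CD4+ T cells too and was kept in each library after thinning. After thinning, 13.1% ± 2.86 of PD1+ and 8.73% ± 2.85 of PD1- CD4+ T cells showed a Trbv gene (SD, n = 3, higher in 3 of 3 libraries, exact p = 0.25), and in CD8+ T cells the shares were 10.5% ± 0.917 and 7.57% ± 0.505 (3 of 3, exact p = 0.25). Trav detection in CD4+ T cells was 8.39% ± 2.28 against 9.23% ± 2.00 (higher in 1 of 3, exact p = 0.75). In Foxp3+ T cells the thinned means were lower in PD1+ cells, with 6.70% ± 1.93 against 8.45% ± 3.14 for Trav (0 of 3, exact p = 0.25) and 6.64% ± 2.81 against 7.68% ± 2.66 for Trbv (1 of 3, exact p = 0.50). Not thinned, the order of the means was the other one, with 22.3% against 20.9% for Trav and 26.4% against 23.5% for Trbv, as it was for Trav in CD4+ T cells (23.9% against 21.9%).

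**Figure D1:**
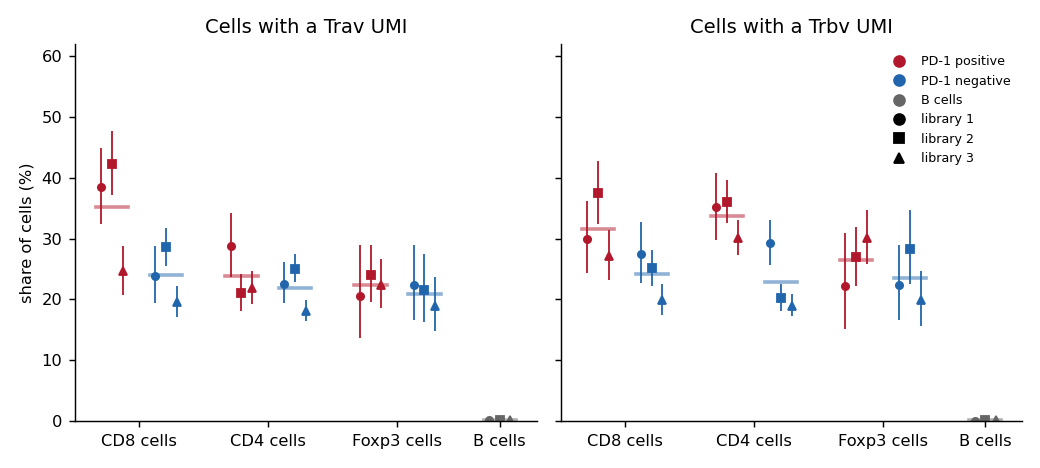
Share of cells (%) with at least 1 Trav UMI (left) or Trbv UMI (right), not thinned, by class and PD1 state. Points are libraries with exact 95% binomial intervals and bars are means over libraries. T cells of every class lie between 18.1 and 42.3%, while the B cells of all 3 libraries lie near 0.

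UMIs were found for 72 of the 128 Trav genes and 25 of the 35 Trbv genes in the 3 classes, and for 51 and 20 genes in all 3 libraries. The Trav UMIs (3941) were spread over more genes than the Trbv UMIs (3630). The 8 genes with the most UMIs held 49.7% of the Trav and 73.5% of the Trbv UMIs. For Trav these were Trav16n (606 UMIs in 426 cells), Trav16d-dv11 (357 in 207), Trav3-3 (286), Trav13n-4 (179), Trav5-4 (161), Trav7-3 (154), Trav14d-3-dv8 (117) and Trav6-7-dv9 (99). For Trbv they were Trbv12-2 (515 UMIs in 465 cells), Trbv13-2 (418), Trbv15 (417 in 332), Trbv2 (342), Trbv19 (289), Trbv13-1 (256), Trbv16 (215) and Trbv20 (215).

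The order of the Trav genes has a technical limit. The alpha locus of the reference strain holds near-identical copies of many segments, and 40 Trav genes had no stretch of 100 coding bases that no other V gene shared, of which 2 had a UMI. Over the 108 functional Trav genes, UMIs and the share of unique 100-base stretches had a rank correlation of 0.673, given as a description over genes of the same libraries. Every Trbv gene was fully distinct by this measure. Trav5d-4, with 0% unique stretches, was at 0 UMIs, and the effect of the shared sequence on this count was not tested. Trav8-1, with 75.1% unique, was also at 0. Whether differences between the NOD genome and the C57BL/6 reference affected any count was not tested.

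For tests, UMIs were summed per library, class and PD1 state (18 sums) and fitted over all genes by the quasi-likelihood method of edgeR, in which each library was a block. A gene was called at a Benjamini-Hochberg adjusted p under 0.05. Of the 163 V genes, 18 had enough UMIs to be tested (7 Trav and 11 Trbv). The other 145 are described by their counts only.

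Trav16n and Trav16d-dv11 were higher in CD8+ than in CD4+ T cells. Of the 18 tested V genes, 7 were called between CD8+ and CD4+ T cells, against 26.9% of all genes tested, and 4 were higher and 3 lower in CD8+ T cells. The median log2 fold change of the 18 was -0.10. Trav16d-dv11 rose by 2.59 (SE 0.43, adjusted p = 0.00016) and Trav16n by 2.28 (SE 0.24, adjusted p = 8.8e-07) on the log2 scale. Trbv13-3 (1.16, SE 0.38) and Trbv3 (1.04, SE 0.30) rose as well, and Trbv20 (-2.04), Trbv1 (-1.37) and Trbv2 (-0.95) were lower in CD8+ T cells.

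Trav16n stood at 25.3, 16.03 and 9.47 CPM (UMIs of the gene relative to all UMIs of the same cells, on the usual CPM scale) in CD8+ T cells of libraries 1 to 3 and at 2.62, 3.41 and 3.32 in CD4+ T cells. The 2 classes did not overlap, and library 1 was the highest in CD8+ T cells. Trav16d-dv11 was at 3.22, 19.1 and 3.07 CPM in CD8+ T cells and at 0.35, 1.47 and 1.88 in CD4+ T cells. Library 2 stood apart here in CD8+ T cells, and without it the log2 fold change of Trav16d-dv11 was 1.35 and no longer passed the test. Without the library block 3 of the 18 genes were called (Trav16n, Trav16d-dv11 and Trbv3), against 1115 of all 10768 genes. Leaving out each library in turn left 3 to 6 called, Trav16n among them each time. Over all genes, 2951 of 11447, 1599 of 10542 and 1498 of 10367 were called without libraries 1, 2 and 3.

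As shares of cells with a Trav UMI, the Trav16 family took 39.4% ± 5.17 in CD8+, 10.7% ± 3.17 in CD4+ and 21.5% ± 5.41 in Foxp3+ T cells (SD, n = 3). It was higher in CD8+ than in CD4+ T cells of 3 of 3 libraries (exact permutation test, p = 0.25). The difference between CD8+ and CD4+ T cells was 28.7 percentage points with an SD of 8.09 over libraries. The Trbv2 family, known from a widely used diabetogenic CD4+ clone, took 6.49% ± 0.885 of the Trbv-positive CD8+ and 10.3% ± 0.654 of the Trbv-positive CD4+ T cells.

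**Figure D2:**
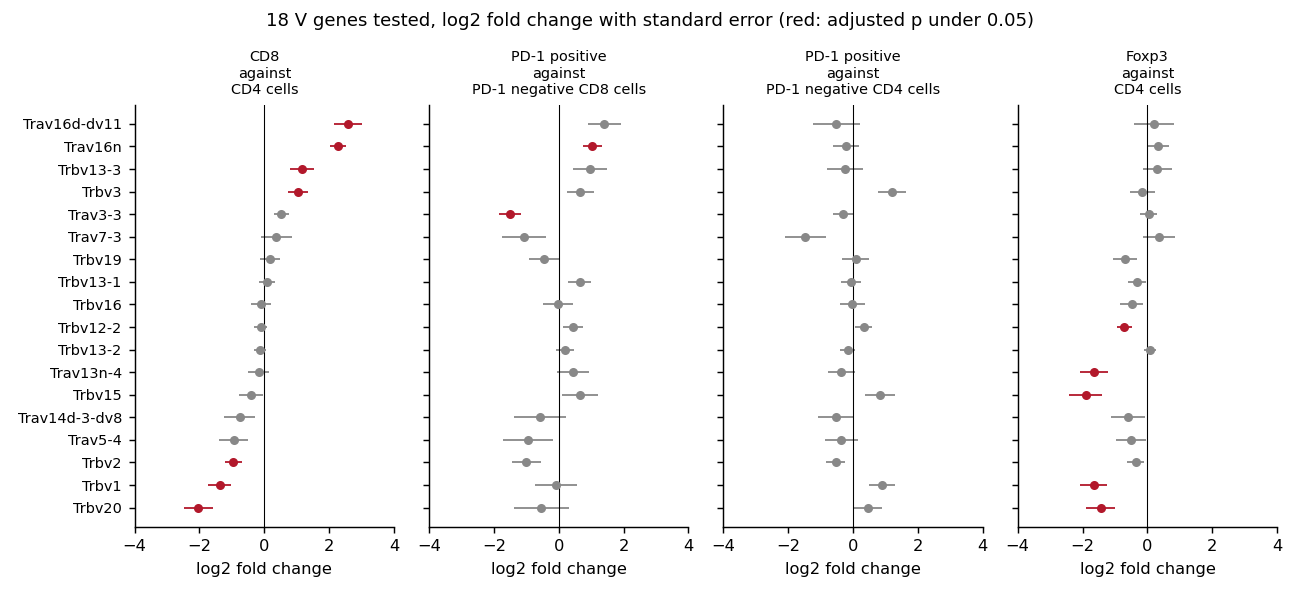
Log2 fold change of the 18 tested V genes (x axis) with its standard error as bars, in 4 comparisons, ordered by the first. Red points passed the adjusted p of 0.05 and grey points did not. Trav16d-dv11 and Trav16n lead the comparison of CD8+ with CD4+ T cells at 2.59 and 2.28, and no V gene passed between PD1+ and PD1- CD4+ T cells.

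Within CD8+ T cells, PD1+ cells carried more of the Trav16 family and less Trav3-3. Of the 18 tested V genes, 2 were called, against 13.7% of all genes, so V genes were not called more often than genes at large. Trav16n was at 38.4, 25.5 and 13.4 CPM in PD1+ and at 12.6, 11.4 and 7.23 CPM in PD1- CD8+ T cells of libraries 1 to 3. All 3 PD1+ values lay above all 3 PD1- values, the closest being 13.4 and 12.6. The log2 fold change was 1.04 (SE 0.29, edgeR adjusted p = 0.022).

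Trav3-3 was at 2.81, 2.83 and 1.74 CPM in PD1+ and at 7.67, 8.20 and 3.12 CPM in PD1- CD8+ T cells. The groups did not overlap, and Trav3-3 fell by 1.49 on the log2 scale (SE 0.34, adjusted p = 0.0055). Trav16d-dv11 was at 4.21, 40.2 and 3.48 CPM in PD1+ and at 2.26, 8.76 and 2.83 CPM in PD1- cells. It was higher in each library but by far the most in library 2, and its log2 fold change of 1.40 (SE 0.50) did not pass (adjusted p = 0.075). It passed with no filter on low counts (adjusted p = 1.8e-05), with cells in place of UMIs (0.00049) and without library 3 (1.76, adjusted p = 0.022), and without library 2 it was 0.46 (adjusted p = 0.80).

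Summed over the family, Trav16 rose by 1.20 (SE 0.30, adjusted p = 0.012) and the Trav3 family was lower by 1.10 on the log2 scale (-1.10, adjusted p = 0.026). Without the library block none of the single V genes was called, against 191 of all 10768 genes. Trav16n lost its call without any 1 of the libraries (adjusted p = 0.058, 0.15 and 0.068 without libraries 1, 2 and 3, with log2 fold changes of 0.84 to 1.18), and Trav3-3 lost it without library 2 (-1.25, adjusted p = 0.17). Tested as a difference between the classes, the PD1 contrast of CD8+ T cells against that of CD4+ T cells, 0 of 18 V genes were called against 0.0186% of all genes, by DESeq2 also 0. The differences of the log2 fold changes were 1.25 for Trav16n (adjusted p = 0.62) and 1.91 for Trav16d-dv11 (adjusted p = 0.74). With no filter on low counts these 2 genes were called (adjusted p = 0.026 for Trav16n and 0.017 for Trav16d-dv11), and under the other alternatives that could be fitted none was. At an unadjusted p under 0.05, 3 of the 18 V genes passed in this comparison.

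The share of Trav16 cells shows the same contrast in each library. Among CD8+ T cells with a Trav UMI, the Trav16 family was seen in 52 of 95, 93 of 149 and 52 of 115 PD1+ cells (54.7%, 62.4% and 45.2%) and in 24 of 78, 64 of 239 and 51 of 190 PD1- cells (30.8%, 26.8% and 26.8%). The lowest PD1+ share lay above the highest PD1- share. The mean difference was 26.0 percentage points with an SD of 8.81 over the 3 libraries (exact permutation p = 0.25). It was 25.7 points after thinning to 2000 UMIs, 28.5 points without the cells of the highest doublet scores, and 29.1 points (SD 29.2) under the cell filter of the study, which left 17 to 39 Trav-positive PD1+ cells per library.

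Split by the number of Pdcd1 UMIs, the share was lowest in cells without Pdcd1 in libraries 1 and 2. In library 2 it was 26.8%, 62.5% and 68.1% in cells with 0, 2 and at least 3 Pdcd1 UMIs, and 21 of 42 in cells with 1. In library 1 the shares with 0, 1, 2 and at least 3 were 30.8%, 43.8%, 66.7% and 54.7%. In library 3 the share with 1 Pdcd1 UMI (26.1%) was close to that of cells without (26.8%), and 52.4% and 49.3% followed. The steps of 1 and 2 UMIs rest on 15 to 42 cells each and the intervals of these steps overlap within each library. Depth moved with the steps, and the cells were not thinned here. The CD8+ T cells without Pdcd1 had medians of 4896, 7309 and 6240 UMIs in libraries 1 to 3. Those with at least 3 Pdcd1 UMIs had 5997.5, 8652.5 and 7555.5. The part of depth in the shares of the steps was not tested.

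**Figure D3:**
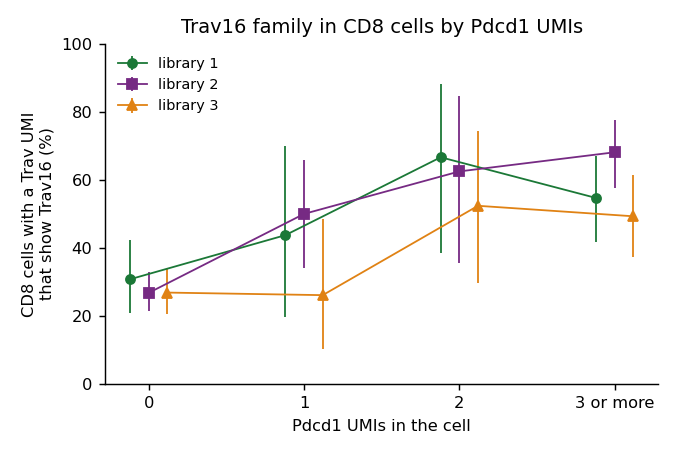
Share (%) of CD8+ T cells with a Trav UMI that showed the Trav16 family (y axis) by the number of Pdcd1 UMIs in the cell (x axis), for the 3 libraries with exact 95% binomial intervals. The share stands between 26.8 and 30.8% without Pdcd1 and between 49.3 and 68.1% with at least 3 UMIs. Cells were not thinned.

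Other Trav families of CD8+ T cells took smaller shares. Trav3 was seen in 7.82% ± 0.762 of PD1+ and 14.8% ± 3.26 of PD1- Trav-positive cells (SD, n = 3, lower in 3 of 3 libraries, exact permutation p = 0.25). Trav13 took 11.2% ± 8.04 and 11.0% ± 0.697, with PD1+ shares of 2.11%, 17.4% and 13.9% in libraries 1 to 3. The Trav7 family took 7.98% ± 3.46 and 12.6% ± 4.57 (lower in 3 of 3, exact permutation p = 0.25). Shares of a locus depend on each other, and the larger Trav16 share of PD1+ cells leaves less for the other families. The part of this in the lower Trav3 and Trav7 shares was not tested. The CPM of the Trav3 family, scaled to all UMIs, were lower too. Trav16 cells are part of these sums, so this scale does not remove the dependence. Among Trbv families, Trbv13 took 32.4% ± 8.63 of PD1+ and 23.6% ± 4.62 of PD1- Trbv-positive cells and was higher in 3 of 3 libraries (exact permutation p = 0.25), and Trbv2 took 4.01% ± 1.99 and 8.34% ± 2.41 (lower in 3 of 3, exact permutation p = 0.25).

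**Figure D4:**
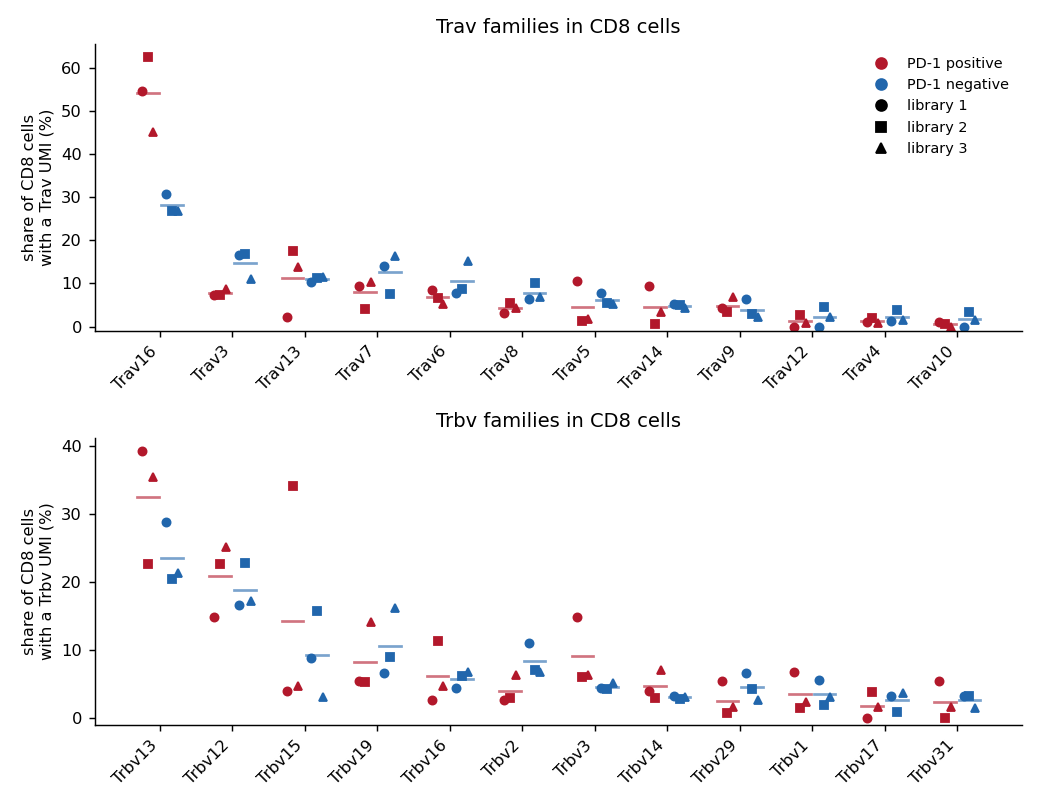
Share (%) of Trav-positive (top) or Trbv-positive (bottom) CD8+ T cells that showed each of the 12 most frequent families, PD1+ (red) and PD1- (blue), with a point per library and a bar at the mean. Trav16 is the most frequent Trav family in both states, and Trbv15 of PD1+ cells is high in library 2 alone (34.1%).

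Library 2 held a large group of CD8+ T cells with Trav16 and Trbv15. Trbv15 was seen in 45 of 132 Trbv-positive PD1+ CD8+ T cells of library 2 (34.1%), but in 3 of 74 (4.05%) in library 1 and 6 of 127 (4.72%) in library 3. Among PD1- CD8+ T cells it was seen in 33 of 210 (15.7%), 8 of 90 (8.89%) and 6 of 192 (3.13%) in libraries 2, 1 and 3. Of the 55 Trbv15 CD8+ T cells of library 2 that showed any Trav gene, 50 showed Trav16 (90.9%, exact 95% interval 80.0 to 97.0%), against 107 of the 333 Trav-positive cells without Trbv15 (32.1%).

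Cells that showed exactly 1 Trav and 1 Trbv family allowed pairs to be read. In PD1+ CD8+ T cells the most frequent pair over the 3 libraries was Trav16 with Trbv15, in 22 of 38 paired cells of library 2 (57.9%, exact 95% interval 40.8 to 73.7%), 1 of 30 of library 3 and 0 of 21 of library 1. In PD1- CD8+ T cells of library 2 the pair was seen in 9 of 65 cells (13.8%, 6.53 to 24.7%). The pair was chosen for its frequency, so these shares are a description. The exact 95% interval of the 0 of 21 in library 1 reaches 16.1%.

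In the other libraries the most frequent pair was Trav16 with a gene of the Trbv13 family, in 5 of 21 (23.8%, 8.22 to 47.2%) and 8 of 30 (26.7%, 12.3 to 45.9%) paired PD1+ CD8+ T cells of libraries 1 and 3. In library 2 this pair was seen in 2 of 38. In PD1- CD8+ T cells it was seen in 1 of 17, 5 of 35 and 2 of 65 cells of libraries 1, 3 and 2. A Trav16 chain with Trbv13-3 is the combination known from an IGRP-specific receptor of NOD mice. Trbv13-3 was seen in 6 of 14 Trav16 PD1+ CD8+ T cells with a Trbv UMI in library 1, in 4 of 17 in library 3 and in 1 of 42 in library 2, where 35 of 42 showed Trbv15. Of all Trbv-positive PD1+ CD8+ T cells, 10 of 74 in library 1 and 19 of 127 in library 3 showed Trbv13-3. Among the 17 of library 3, Trbv13-1 was seen in 4 as well, and Trbv13-2 and Trbv12-2 in 3 each.

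The Trav16 contrast with PD1 was also measured without the cells in which Trbv15 was seen. With these left out, Trav16 was seen in 54.7%, 51.3% and 44.6% of Trav-positive PD1+ CD8+ T cells. In PD1- ones it was seen in 32.0%, 22.3% and 26.5%. The difference was 23.3 points (SD 5.46, higher in 3 of 3 libraries, exact permutation p = 0.25). Most CD8+ T cells showed no Trbv UMI, so cells of the Trav16 and Trbv15 group can remain. In library 2, 90 CD8+ T cells with Trav16n or Trav16d-dv11 showed no Trbv UMI, against 50 with Trbv15. This measure therefore cannot show the contrast free of that group. With Trbv15 cells kept and library 2 left out, the difference was 21.2 points.

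Some cells showed both near-identical copies. In library 2, 55 CD8+ T cells showed both Trav16n and Trav16d-dv11, of 110 cells with the first and 102 with the second. In libraries 1 and 3 both were seen in 6 of 72 and 9 of 77 cells with Trav16n. Of the cells with Trav16d-dv11, 6 of 10 in library 1 and 9 of 29 in library 3 showed both. Trav16n was also seen in 5 of 5, 3 of 3 and 2 of 8 cells with Trav16 in libraries 1 to 3. Among the 50 Trbv15 cells of library 2 with a copy, 22 showed both, with 52 UMIs of Trav16n and 94 of Trav16d-dv11 (64.4% Trav16d-dv11). In cells of the same library with another Trbv gene only, Trav16d-dv11 made up 42.4% of these UMIs, and in cells with no Trbv UMI 49.0%. In libraries 1 and 3 it made up 12.5% and 26.7% in cells with another Trbv gene only. A cell with 2 Trav16 chains and a single chain whose reads are split between the copies cannot be told apart in these counts.

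Trav use was concentrated on fewer genes in PD1+ than in PD1- CD8+ T cells of each library. The effective number of genes is the inverse of Simpson's index, with each cell counted once for every V gene it showed. It is the number of equally used genes that would give the same chance that a pair of drawn detections is of the same gene. A cell that showed more than 1 gene of the locus entered more than once. The most used genes weigh most in this number. For Trav it is therefore not separate from the Trav16 share, and no value without Trav16 was taken. For Trav genes of CD8+ T cells it was 5.99, 5.65 and 7.56 in PD1+ and 13.2, 14.5 and 19.5 in PD1- cells of libraries 1 to 3, with no overlap. The mean difference was -9.30 genes (SD 2.39, lower in 3 of 3 libraries, exact permutation p = 0.25). For Trbv genes it was 13.4, 7.24 and 10.6 against 15.6, 11.8 and 13.7, lower in each library but with groups that overlap (mean -3.26, SD 1.22, exact permutation p = 0.25).

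In CD4+ T cells the effective number of Trav genes was 28.5 ± 6.44 in PD1+ and 32.6 ± 3.63 in PD1- cells (SD, n = 3, lower in 2 of 3 libraries, exact permutation p = 0.50). Foxp3+ T cells stood at 17.3 ± 6.15 and 30.3 ± 8.52 (lower in 3 of 3, exact permutation p = 0.25). The effective number of Trbv genes was 10.2 ± 0.336 against 11.3 ± 0.109 in CD4+ T cells (lower in 3 of 3, exact permutation p = 0.25) and 11.3 ± 0.675 against 11.7 ± 1.71 in Foxp3+ T cells (lower in 2 of 3, exact permutation p = 0.75). Counted by family the order was the other one, 8.44 ± 0.432 in PD1+ against 8.11 ± 0.215 in PD1- CD4+ T cells and 7.36 ± 0.252 against 6.21 ± 0.705 in Foxp3+ T cells (each higher in 3 of 3 libraries, exact permutation p = 0.25).

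Between PD1+ and PD1- CD4+ T cells 0 of the 18 V genes were called by edgeR or by DESeq2, against 15.6% of all genes by edgeR, and 3 had an unadjusted p under 0.05. Trbv3 had the lowest adjusted p (0.072), with 1.92, 3.67 and 1.58 CPM in PD1+ and 0.82, 0.98 and 0.92 CPM in PD1- cells of libraries 1 to 3. The groups did not overlap for Trbv3, whose log2 fold change was 1.19. It passed when cells with the highest doublet scores were left out (adjusted p = 0.020) and when PD1+ cells needed 2 Pdcd1 UMIs (adjusted p = 0.042), and over the alternatives that could be fitted with this gene its adjusted p reached 0.63 (without library 2).

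Trbv15 was seen in 22.9%, 19.5% and 13.4% of Trbv-positive PD1+ CD4+ T cells and in 15.0%, 10.0% and 9.07% of PD1- ones. It was higher in each library, by a mean of 7.24 percentage points (SD 2.64, exact permutation p = 0.25), and its CPM did not pass (log2 fold change 0.82, adjusted p = 0.28), though it did with no filter on low counts (adjusted p = 0.011) and with cells in place of UMIs (adjusted p = 0.017). In contrast to CD8+ T cells of library 2, few of the Trbv15 CD4+ T cells with a Trav UMI showed Trav16, 4 of 16 in library 2, 3 of 11 in library 3 and 1 of 12 in library 1.

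Trbv20 was the most frequent in library 3 in CD4+ T cells. It was seen in 51 of 291 Trbv-positive PD1+ CD4+ T cells of library 3 (17.5%), in 13 of 266 (4.89%) of library 2 and in 5 of 105 (4.76%) of library 1. In PD1- CD4+ T cells of library 3 it was also the highest, at 9.35%, against 3.94% and 5.56%. The largest pair of PD1+ CD4+ T cells was Trav7 with Trbv13 in library 2 (6 of 41 paired cells) and Trav8 with Trbv1 in library 3 (3 of 52). In library 1 no single pair was the largest. Trav13 with Trbv15 and Trav5 with Trbv12 were among several pairs tied at 2 of 28. Over whole classes the most frequent pairs of CD4+ T cells were Trav13, Trav16 and Trav7 with Trbv13, each in 8 of 287 paired cells.

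In Foxp3+ T cells 0 of the 18 V genes were called between PD1+ and PD1- cells by edgeR, against 0.511% of all genes, with 1 at an unadjusted p under 0.05 and 0 called by DESeq2. Trbv15 was seen in 10.7% ± 1.87 of PD1+ and 2.12% ± 2.42 of PD1- Trbv-positive cells (SD, n = 3, higher in 3 of 3 libraries, exact permutation p = 0.25), on 25 and 4 cells. The Trav16 family took 25.3% ± 5.72 and 16.2% ± 7.0 of Trav-positive cells (higher in 3 of 3, exact permutation p = 0.25). Of the 7 Trbv15 Foxp3+ T cells of library 2 with a Trav UMI, 5 showed Trav16, the pair that was frequent in CD8+ T cells of the same library, and the part of mixed droplets in this was not tested. The most frequent family pairs of the class were Trav13 and Trav3 with Trbv13, each in 5 of 76 paired cells, and Trav16 with Trbv15 in 4.

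Against CD4+ T cells, Foxp3+ T cells had lower CPM of 5 of the 18 V genes and a higher CPM of none, against 15.9% of all genes called. These were Trbv15 (-1.90, SE 0.51), Trbv1 (-1.66, SE 0.42), Trav13n-4 (-1.65, SE 0.44), Trbv20 (-1.44, SE 0.44) and Trbv12-2 (-0.71, SE 0.23). No V gene was called without the library block or without library 3, Trbv1 and Trbv20 were called without library 1, and Trbv15 and Trav13n-4 without library 2. Over all genes, 444 of 10768 were called without the block. Without libraries 1, 2 and 3 it was 2040 of 11447, 593 of 10542 and 700 of 10367. The constant genes were lower too, Trac by 0.45 on the log2 scale (-0.45), Trbc1 by 0.48 (-0.48) and Trbc2 by 0.36 (-0.36). Scaled to the total of their own locus, none of these 5 passed and Trbv13-2, at 22.1%, 21.4% and 18.8% of Trbv-positive Foxp3+ and 13.3%, 13.6% and 12.6% of CD4+ T cells, was called higher. The direction of the calls depended on the scale.

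V genes of innate-like T cells were seen in few cells. The counts below are over all T cells, most of which showed no Trav UMI and most no Trbv UMI. They therefore do not give the frequency of such cells. Trav11, used by invariant NKT cells, was seen in 5 of 18078 T cells, of which 2 had a UMI of Zbtb16, the transcription factor of innate-like T cells, and Trav11d and Trav11n in none. Trav11 had 0.41% unique stretches, and the effect of this on its count was not tested. Trav1, used by MAIT cells, was seen in 26 cells, none with Zbtb16. Trbv26, whose T cells are largely deleted in NOD mice by an endogenous superantigen, was seen in 24. Of the T cells 296 had a Zbtb16 UMI.

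The constant regions and signalling partners of the receptor were read in the same cells. From a list of 20 genes for receptor constant regions, CD3 chains, rearrangement and proximal signalling, 15 were tested (Ptcra, Rag1, Rag2, Dntt and Zbtb16 were too low), and 7 were higher and 1 lower in PD1+ CD8+ T cells, against 13.7% of all genes called in either direction. Trbc2 (0.34, adjusted p = 0.016), Cd3g (0.35, adjusted p = 0.0055) and Zap70 (0.44, adjusted p = 0.022) were among the higher ones and Cd247, which encodes the CD3 zeta chain, was lower (-0.48, adjusted p = 0.010).

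The other 4 were gamma and delta constant genes. Tcrg-C2 was at 60.4, 33.4 and 64.8 CPM in PD1+ and at 25.7, 5.56 and 8.36 CPM in PD1- CD8+ T cells (log2 fold change 2.13). Tcrg-C4 (2.07), Tcrg-C1 (1.68) and Trdc (1.18) rose with it, Tcrg-C1 and Trdc at lower levels. In PD1+ CD8+ T cells Tcrg-C4 was at 35.6, 38.2 and 42.2 CPM, above Tcrg-C2 in library 2 alone. In CD4+ T cells 5 of the 15 were higher and 1 lower in PD1+ cells, against 15.6% of all genes. Tcrg-C2 (1.98), Tcrg-C4 (1.39) and Trdc (0.96) were among the higher ones there too, and Trat1, a receptor-associated adaptor, was the lower one (-0.96, adjusted p = 5.3e-05). In Foxp3+ T cells none was called.

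CD8+ T cells that showed Trav16 also differed in other genes. UMIs of Trav16 cells and of CD8+ T cells with another Trav gene only were summed per library (76 and 97, 157 and 231, 103 and 202 cells of libraries 1 to 3), V genes were taken out and the same test was run. A cell that showed Trav16 beside another Trav family counted as a Trav16 cell. This comparison was chosen after the usage was seen. Of 7827 genes 166 were called (2.12%), 83 in each direction, and 34 of these were called also without each library in turn, by DESeq2 and without cells of high doublet scores. Without the library block 0 of 7827 were called by edgeR (315 at an unadjusted p under 0.05), and under the cell filter of the study 3 of 2106.

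Of the 34 genes, 21 were higher in Trav16 cells. Penk, which encodes proenkephalin, was at 191, 661 and 240 CPM in Trav16 cells against 35.2, 34.9 and 81.5 CPM in the other cells of libraries 1 to 3 (log2 fold change 2.71, SE 0.31). All 3 values lay above those of the other cells, and library 2 was the highest. Receptors of natural killer cells were among the 34, Klre1 (1.26), Klrc1 (0.99), Klrc2 (0.94) and Klrk1 (0.93), with the chemokine receptor Cxcr6 (1.17), the chemokine Ccl5 (0.79), the granule gene Nkg7 (0.87) and Cd7 (1.21).

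Also higher were Tox (0.93, SE 0.12) and Eomes (0.92, SE 0.12), which encode transcription factors, and Lag3 (1.06, SE 0.16), which encodes an inhibitory receptor. Pdcd1 was higher too (0.90, SE 0.12), which restates the PD1 contrast by which Trav16 was singled out. Among PD1+ CD8+ T cells alone the log2 fold change of Pdcd1 was 0.15 (edgeR adjusted p = 0.81). The 13 lower genes held Lef1 (-0.94), a factor of naive and memory T cells, and S1pr1 (-0.94), the receptor for exit from tissue. S1pr1 was at 96.4, 147 and 138 CPM in Trav16 cells and at 114, 295 and 304 CPM in the other cells, lower in each library with groups that overlap.

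PD1 and depth moved with this comparison, and the part that cells of several Trav families had in the depth was not tested. Pdcd1 was seen in 68.4%, 59.2% and 50.5% of Trav16 cells and in 44.3%, 24.2% and 31.2% of the other cells, and Trav16 cells were deeper (medians 6018.5, 10193 and 7422 against 5777, 8050 and 6952.5 UMIs). Among PD1+ CD8+ T cells alone, 29 of 5761 genes were called. All 34 genes kept their direction there. These are part of the cells in which the 34 were chosen, so the kept direction is no separate support. Of the 34, 15 were called by edgeR, among them Penk, Klre1, Cd7, Cxcr6, Klrc1, Nkg7, Ccl5 and S1pr1. Tox (0.59, adjusted p = 0.21), Lag3 (0.91, adjusted p = 0.069) and Eomes (0.50, adjusted p = 0.29) were not. Klrc2 (0.79, adjusted p = 0.055), Klrk1 (0.69, adjusted p = 0.14) and Lef1 (-0.70, adjusted p = 0.089) were not called either. The cells of an expanded clone are not independent of each other, and clone and V gene cannot be told apart here.

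**Figure D5:**
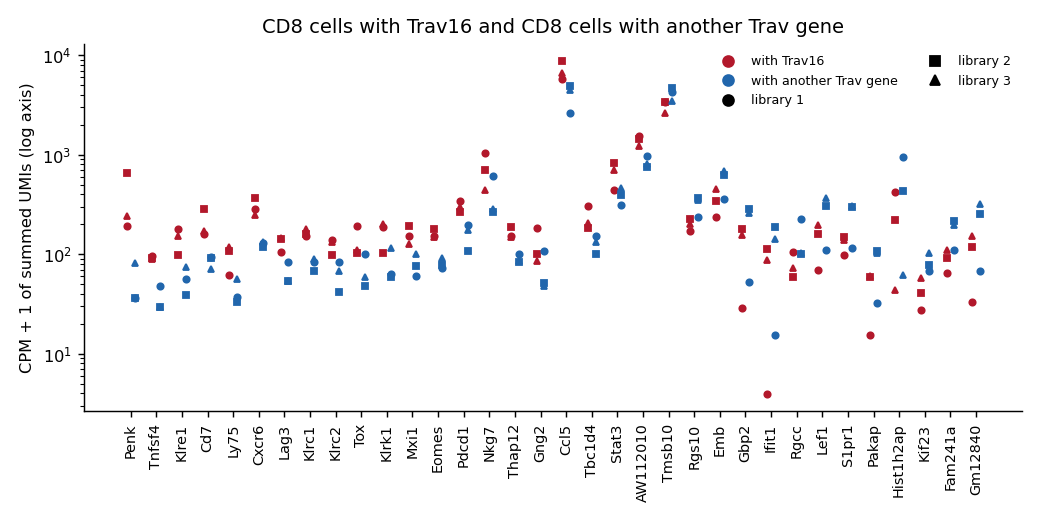
CPM + 1 (log axis) of the 34 genes in summed UMIs of CD8+ T cells with Trav16 (red) and with another Trav gene (blue), with a marker shape per library. The genes are ordered by log2 fold change from Penk (2.71) to Gm12840 (-1.15).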

How the data were processed

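The authors sorted live CD45+ islet cells, made 10x 3′ v3.1 libraries and counted them with Cell Ranger 6.0.1 against mm10 (per the labels and their methods). The deposited matrices hold raw UMI counts per gene and cell, not normalized, 1 matrix per library, with 33851381, 74775394 and 80806452 UMIs in all. No deposited column was left unused (0).

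From these counts, cells were gated as described, cell classes were not taken from a deposited annotation, and counts were summed per library, class and PD1 state. Sums were tested with edgeR 4.0.16 (quasi-likelihood, TMM, filterByExpr, library as block, Benjamini-Hochberg over all genes, threshold 0.05) in R 4.3.3, with DESeq2 1.42.0 as an alternative. Shares and effective numbers were compared over the 3 libraries with an exact two-sided sign-flip permutation test. Intervals are exact binomial (95%) and cover counting error only. Detection was also read after thinning each cell to 2000 UMIs. Doublets were scored against artificial doublets, kept in the main values and left out in an alternative (9.88 to 12.15% of the gated T cells per library). The edgeR fit, and no other step, was tested on simulated counts, in which the changed genes had more UMIs than most tested V genes.

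Cells of a library come from the same pooled mice, which is why the library is a block. Deviations of sums from their group means correlated at 0.257 to 0.690 within a library (45 pairs) and at -0.566 to 0.365 between libraries (90 pairs). Deviations from a group mean cancel over the 3 libraries, so the values between libraries follow from those within and are no separate support. The libraries came from 2 experiments, and which library belonged to which was not given in the sources used here, so no batch was tested.

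The genes and lists were chosen with earlier results of these data known. Named are the 8 Trav and 8 Trbv genes with the most UMIs, V genes called in a comparison, the most frequent pairs of each class and V genes known from NOD mice or innate-like T cells. The comparison of Trav16 cells, its 34 genes, the Pdcd1 steps, Trav13 and Trbv20 were chosen after values were seen. Gene positions and sequences are those of GENCODE M21 (GRCm38). The cell filter of the study asked for a gene number from 200 to 5000, a total below 6000 UMIs, a mitochondrial share below 5% and a ribosomal share above 5%.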

Additional observations from a re-analysis of the deposited data

Results flagged for a closer look

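V genes were also seen in T cells outside the 3 classes, above the level in B cells (0.189% for Trav and 0.0710% for Trbv). Those B cells were chosen to have no UMI of Trac, Cd3d, Cd3e or Cd3g, which can lower their level, so the order was favoured by the gates. Among 7409 Cd3e-positive cells in none of the 3 classes, with the 59 left-out cells among them, 17.8% showed a Trav UMI and 18.3% a Trbv UMI. A gamma-delta gate, which overlaps with this group, took 495 Cd3e-positive cells with at least 2 Trdc UMIs and none of Cd4, Cd8a or Cd8b1. Of these, 8.28% showed a Trav UMI (41 cells) and 8.48% a Trbv UMI (42 cells), and 19.6% showed Trac. The Trav genes seen in most of these Trdc cells were Trav13-2 (13 of 41 cells), Trav15-2-dv6-2 (8) and Trav13n-4 (6). Genes with a dv name, which can join to delta segments as well, held 14 of their 53 Trav UMIs (26.4%), against 732 of 3941 (18.6%) in the 3 classes. The genes behind the 2 shares differed. Trav16d-dv11 held 357 of the 732 UMIs in the 3 classes and 2 of the 14 in the Trdc cells. Trav15-2-dv6-2 held 8 of the 53 UMIs of the Trdc cells, and the whole Trav15 family 21 of the 3941 of the classes. What these cells were was not tested.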

How the results depend on the processing

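The number of V genes called depended on the filter, the block and the cells kept, and the number of all genes called moved as well. Between PD1+ and PD1- CD8+ T cells (2 called) it was 4 with no filter on low counts, 0 without the replicate block, 1 after thinning, 0 under the cell filter of the study and 0 to 2 with each library left out. Over all genes, 1473 of 10768 were called in the main fit, 1691 of 19833 with no filter and 191 of 10768 without the block. After thinning it was 869 of 7622 and under the study filter 754 of 7129. Without libraries 1, 2 and 3 it was 1762 of 11447, 401 of 10542 and 357 of 10367. Between PD1+ and PD1- CD4+ T cells (0 called) it was 2 with no filter, 1 without high doublet scores, 1 with at least 2 Pdcd1 UMIs and 2 with cells in place of UMIs. Over all genes, 1675 of 10768 were called in the main fit. In the order given, the settings had 1890 of 19833, 1587 of 10402, 1739 of 10565 and 3314 of 10553 genes called. Between CD8+ and CD4+ T cells (7 called) it was 11 with no filter, 3 without the replicate block, 1 after thinning, 1 under the study filter and 3 to 6 with each library left out. Over all genes, 2892 of 10768 were called in the main fit, 3052 of 19833 with no filter and 1115 of 10768 without the block. After thinning it was 1494 of 7622 and under the study filter 1011 of 7129. Without libraries 1, 2 and 3 it was 2951 of 11447, 1599 of 10542 and 1498 of 10367. Between Foxp3+ and CD4+ T cells (5 called) it was 0 without the replicate block, 1 after thinning, 0 under the study filter, 2 with cells in place of UMIs, 1 scaled to the own locus and 0 to 2 with each library left out. Over all genes, 1715 of 10768 were called in the main fit, 444 of 10768 without the block and 1068 of 7622 after thinning. Under the study filter it was 940 of 7129, with cells in place of UMIs 2804 of 10553 and scaled to the own locus 1710 of 10768. Without libraries 1, 2 and 3 it was 2040 of 11447, 593 of 10542 and 700 of 10367. For the difference of the PD1 contrasts (0 called) it was 2 with no filter (Trav16n and Trav16d-dv11). Over all genes, 2 of 10768 were called in the main fit and 184 of 19833 with no filter. After thinning 2 V genes could be tested and under the study filter 1, against 97 with no filter.

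Some differences of PD1+ minus PD1- turned in sign. Trav detection in CD4+ T cells was 1.97 points not thinned and 1.38 under the study filter (-1.43 to 0.152 with each library left out), and in Foxp3+ T cells 1.38 not thinned. Trbv detection in Foxp3+ T cells was 2.89 not thinned and 0.653 under the study filter. The effective number of Trbv families in CD4+ T cells was 0.327 higher, and in Foxp3+ T cells the effective number of Trbv genes differed by 0.0044 after thinning, by 1.15 for families and by -1.26 to 0.378 with each library left out. The causes were not tested.

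For Trav16 against other CD8+ T cells (166 called), DESeq2 gave 55, no filter 377, no replicate block 0, thinning 63, the study filter 3, no high doublet scores 91, PD1+ cells alone 29, and each library left out 117 to 173. With each library left out, the Trav16 share difference was 21.2 to 29.8 points, and the mean share of the largest pair of PD1+ CD8+ T cells, 20.4% (SD 32.5, n = 3) for Trav16 with Trbv15, was 30.6% without library 1 and 28.9% without library 3, while without library 2 the largest pair was Trav16 with Trbv13 at 25.2%. A single UMI per cell limits most V gene calls, and 3 libraries limit every test over libraries.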
